A study of Mus musculus with 6 samples.

Results

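The mitochondrial respiratory chain was followed through 80 nuclear genes in mouse bone marrow cells grown with and without added potassium chloride (KCl). Members were taken by name, as genes called Nduf with a subunit letter and number, Sdha to Sdhd, Uqcr, Cyc1, Cycs, Cox4 to Cox8 and Atp5, with a mean of at least 20 counts per library. Of 19162 genes deposited, 87 matched by name and 80 reached the minimum. Ndufb4 (mean count 23.8), Cox6b2 (37.0) and Atp5l2-ps (42.7) were just inside it, and Cox7a1 (14.2) and Cox6a2 (10.8) just outside. They comprised 35 genes of complex I, 4 of complex II, 9 of complex III, cytochrome c, 13 of complex IV and 18 of complex V. Ndufa4 bears a complex I name and is counted here with complex IV, where its protein is known to sit. The names do not hold in full, since Atp5s and Atp5sl are not structural subunits and Atp5l2-ps is annotated as a processed pseudogene. Ndufab1, a complex I subunit whose symbol is built differently, was not taken.

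Bone marrow cells of C57BL/6J mice were cultured for 4 days with 40 ng/mL recombinant GM-CSF, a cytokine that drives the growth of myeloid cells, and the series presents the product as myeloid-derived suppressor cells of bone marrow origin. The control libraries 1, 2 and 4 came from cells given nothing further, and the KCl libraries 1, 2 and 4 from cells given an additional 34.7 mM KCl, which raises osmolality together with potassium. The effects of these cannot be told apart here. The labels name no separate mice or cultures for the replicates, and a p-value here measures only how far these samples scatter, which may be technical scatter.

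Complexes I, III and IV pass electrons from NADH to oxygen and pump protons across the inner mitochondrial membrane, complex II feeds in electrons from succinate, cytochrome c carries them between complexes III and IV, and complex V, the ATP synthase, makes ATP from the proton gradient. Most subunits are encoded in the nucleus and imported, while a small set is encoded by mitochondrial DNA, so the complexes are assembled from the products of both genomes. Activated and immature myeloid cells are known to shift between oxidative phosphorylation and glycolysis.

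Library totals ranged from 14118724 to 21694831 counts. Levels per library are counts relative to library size (CPM), scaled by TMM. Fold changes are KCl against control from the quasi-likelihood test of edgeR, with p-values adjusted by Benjamini-Hochberg over all 13326 tested genes and a threshold of 0.05. Markers of myeloid cells were well represented, with a summed CPM of 4660 to 5520 in control and 5240 to 5610 in KCl (3 of 6 rose), while those of T, B and NK cells summed to 8.39 to 11.5 and 11.3 to 17.1 (1 of 3 tested rose), with Ncr1 absent or at 0. Neutrophil markers summed to 7450 to 8930 in control and 8010 to 11500 in KCl (1 of 6 rose), and monocyte and macrophage markers to 1210 to 1410 and 1630 to 1800 (3 of 6 rose). Dendritic markers summed to 4040 to 5710 and 3060 to 3900 (3 of 6 fell), and eosinophil, basophil and mast cell markers to 2260 to 2470 and 1110 to 1350 (3 fell and 1 rose). Erythroid and megakaryocyte markers summed to 97.5 to 154 and 119 to 134 (0 of 2 tested changed in edgeR), and stromal and endothelial markers to 80.1 to 84.7 and 79.2 to 85.5 (1 of 6 rose). The part of cell composition in the results below was not tested. In bulk RNA a change in the share of a cell type and a change in RNA per cell cannot be told apart.

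The libraries numbered 4 stand apart and bear on every result with all 6 libraries. In 68 members the mean count was at least 300, and for these the average CPM of control 4 and KCl 4 was set against the average of the other 4 libraries as a ratio. The log2 ratio had an SD of 0.0071 across these members, where counting noise alone would give 0.038, and it was at most 0.024 in size. Over all 8231 genes of that depth the SD was 0.0095, against 0.123 to 0.262 for the 14 other ways of choosing a pair. The counts of these libraries are thus not independent of the others, the sources used here describe no processing step with this effect, and p-values with all 6 libraries may be too small. Counts, medians and the fold changes of most genes described are therefore also given without replicate 4, from 2 libraries per group.

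With all 6 libraries, few respiratory chain genes changed with KCl. Of the 80 members, 4 rose (5.0%) and 0 fell, where 22.9% of all tested genes passed the threshold, 12.4% upward and 10.5% downward. They were 3 genes of complex I, among them Ndufs1 and Ndufc1, and Cox6a1 of complex IV. DESeq2 and limma-voom each called 4 higher and 0 lower as well, and at an unadjusted p under 0.05 edgeR gave 7 members higher and 1 lower. At that unadjusted p, 4564 of the 13326 tested genes passed in either direction, a larger share than of the members. This is also the background for the unadjusted counts by complex below with all 6 libraries. With all 6 libraries the 95% interval of the fold change lay within 1.5-fold in either direction for 66 of 80 members (82.5%), against 60.7% of all tested genes, and within 2-fold for 78. The median SE of a member's log2 fold change was 0.12, close to the 0.11 of all tested genes. Without replicate 4, 0 of 80 members passed the adjusted threshold in edgeR, where 0.458% of all tested genes did. At an unadjusted p under 0.05, 4 members were then higher (5.0%, against 16.2% of all tested genes). Lower were 16 (20.0%, against 13.6%), so the members were scarce upward but not downward. In that fit the interval lay within 1.5-fold for 47 members (58.8%, against 43.6% of all tested genes) and within 2-fold for 74, and Uqcr10 had a log2 fold change of -0.64, Cox4i1 of -0.53 and Atp5j2 of -0.48.

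**Figure D1:**
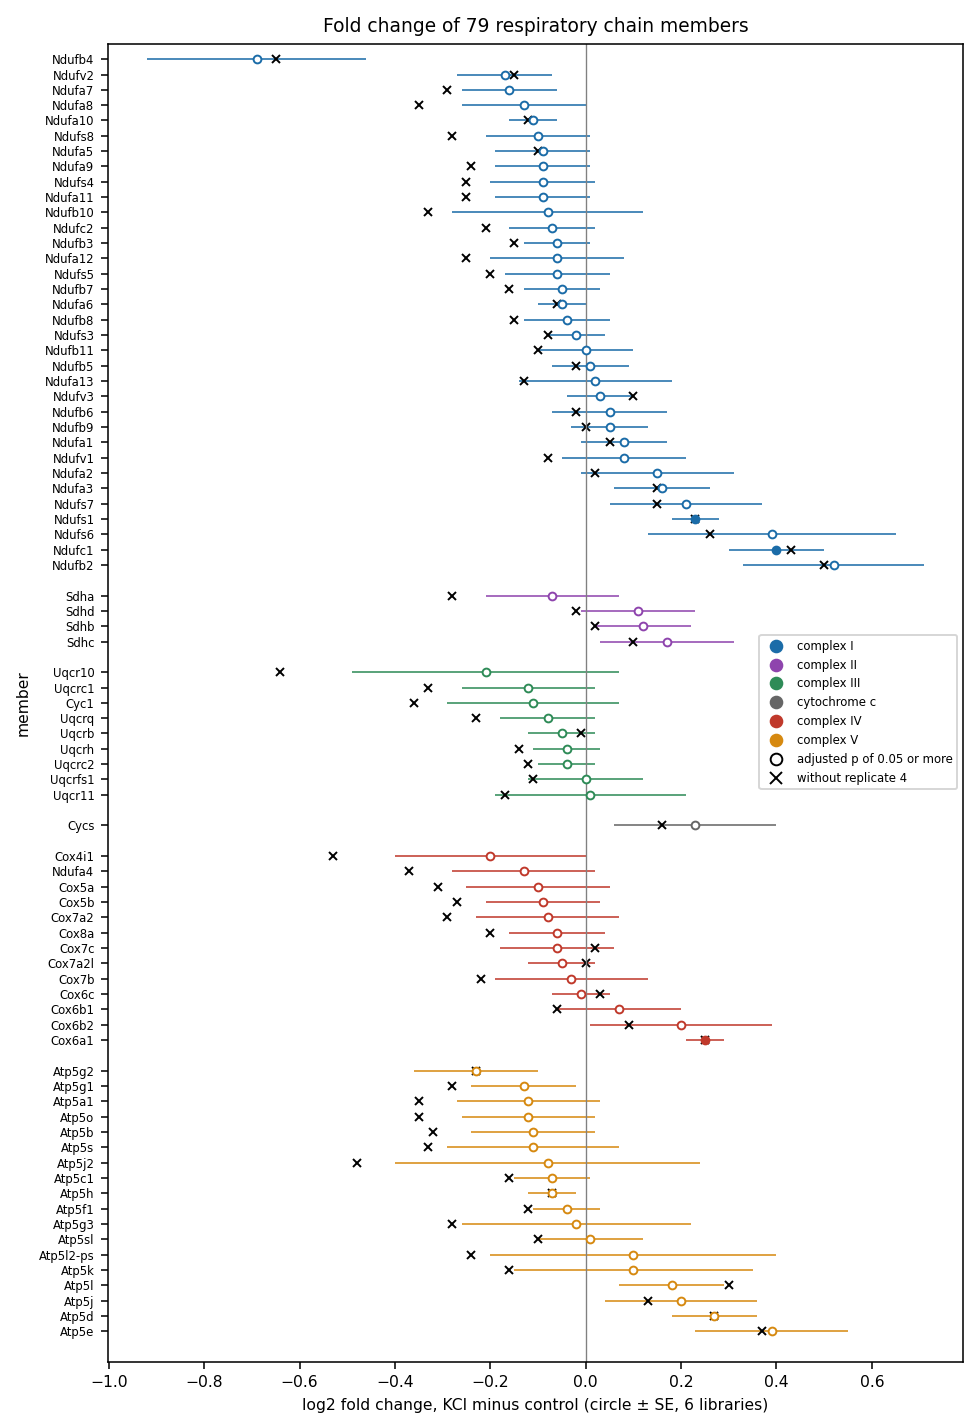
Fitted log2 fold change of 79 of the 80 members, KCl minus control, grouped by complex. Circles with bars show the value ± SE from 6 libraries, filled where the adjusted p was below 0.05, and crosses show the value without replicate 4. The filled circles (Ndufs1, Ndufc1, Cox6a1) have crosses on the same side, while most open circles left of zero have crosses further to the left.

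Cox6a1 encodes the widely expressed form of subunit VIa, a nuclear-encoded regulatory subunit of cytochrome c oxidase. It stood at 137, 132 and 135 CPM in control and 157, 164 and 158 CPM in KCl, which is 0.25 ± 0.04 higher on the log2 scale (SE, n = 3 per group; edgeR adjusted p = 0.0123). All 3 KCl libraries lay above all 3 control libraries, and the difference was 0.25 without replicate 4 (adjusted p = 0.111) and 0.23 between KCl 4 and control 4. The gene lies at chr5:115345642-115348981 on the minus strand (GENCODE M21, GRCm38). Its muscle relative Cox6a2 had only 4 to 21 counts per library, under the minimum.

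Ndufs1 encodes the largest iron-sulphur subunit of the arm of complex I that oxidises NADH. It stood at 106, 106 and 105 CPM in control and 121, 129 and 123 CPM in KCl, a 1.18-fold difference (log2 0.23 ± 0.05 SE, n = 3 per group; edgeR adjusted p = 0.0147). The groups did not overlap, and the spread in control was narrow beside the difference. Ndufc1, a small accessory membrane subunit, rose by a larger factor, from 13.8, 14 and 14.2 CPM to 16.4, 21 and 18 CPM (1.32-fold, log2 0.40 ± 0.10 SE; edgeR adjusted p = 0.0363). The KCl libraries differed more among themselves for Ndufc1 than the control libraries did, with an SD of 2.32 against 0.192 CPM. Without replicate 4 the log2 fold changes were 0.23 for Ndufs1 and 0.43 for Ndufc1, with edgeR adjusted p of 0.125 and 0.153. Ndufs1 (chr1:63143596-63176833) lies on the minus strand of chromosome 1 and Ndufc1 (chr3:51404677-51408988) on that of chromosome 3.

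**Figure D2:**
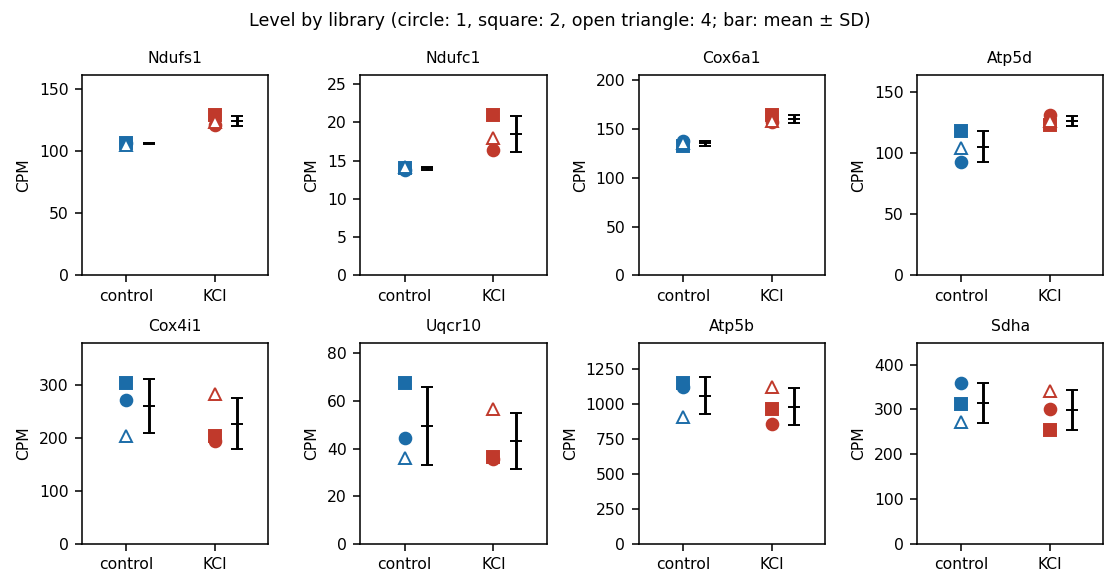
TMM-scaled CPM of 8 members in the 6 libraries, control on the left and KCl on the right of each panel, with circles for replicate 1, squares for 2, open triangles for 4 and bars for the mean ± SD. Ndufs1, Ndufc1, Cox6a1 and Atp5d have every KCl point above every control point, and Cox4i1 has its triangles on the opposite side from replicates 1 and 2.

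Promoter sequence was examined because nuclear respiratory factor 1 (NRF1), ETS factors of the GABP type, YY1 and factors of cyclic AMP response elements (CRE) are known to act on many respiratory chain promoters. RefSeq promoters (GRCm38.p6, 250 bases before to 50 after the gene start) were found for 67 of 80 members. Of these, 11 (16.4%) held the NRF1 letters GCATGCGC on either strand, against 3.05% of 27025 genes, and 16 (23.9%) held the ETS letters CCGGAAG, against 9.93%. The YY1 letters AAGATGGC occurred in 11 (16.4%, against 3.19%) and the CRE letters TGACGTCA in 5 (7.46%, against 2.03%). The NRF1 letters nearly read the same on both strands, so that a match on one can overlap a match on the other. At least 1 of the 4 was in 35 members (52.2%), against 16.4% of all genes. The 27025 genes were taken whatever their counts in these cells, while members needed a mean of at least 20. What part of the difference in shares comes from this was not tested. Of the 35 members with a motif, 12 were lower in KCl 1 and 2 than in control 1 and 2 but higher in KCl 4 than in control 4, as were 16 of the 32 without. The same arrangement was found in 13.8% of all tested genes.

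The 250 bases before the start of 3 members that hold NRF1 letters are shown, 5′ to 3′ on the gene's strand, since Cox6a1 rose with KCl in every replicate while Ndufa8 and Ndufa11 were lower in KCl 1 and 2 and higher in KCl 4. Capitals mark matches to the NRF1, ETS or CRE letters on either strand. The windows are chr5:115348959-115349208 (minus strand), chr2:36049339-36049588 (minus strand) and chr17:56717512-56717761 (plus strand) on GRCm38.p6.
Cox6a1: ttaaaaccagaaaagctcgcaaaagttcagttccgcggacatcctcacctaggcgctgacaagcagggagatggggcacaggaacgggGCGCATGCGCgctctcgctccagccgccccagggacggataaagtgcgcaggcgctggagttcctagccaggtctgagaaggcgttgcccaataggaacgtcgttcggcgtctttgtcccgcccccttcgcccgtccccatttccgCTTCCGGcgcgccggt
Ndufa8: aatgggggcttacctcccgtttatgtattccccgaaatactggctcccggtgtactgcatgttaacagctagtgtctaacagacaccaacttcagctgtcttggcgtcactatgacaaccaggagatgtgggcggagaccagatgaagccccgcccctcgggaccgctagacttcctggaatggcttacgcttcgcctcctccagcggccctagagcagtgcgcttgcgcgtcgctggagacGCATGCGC
Ndufa11: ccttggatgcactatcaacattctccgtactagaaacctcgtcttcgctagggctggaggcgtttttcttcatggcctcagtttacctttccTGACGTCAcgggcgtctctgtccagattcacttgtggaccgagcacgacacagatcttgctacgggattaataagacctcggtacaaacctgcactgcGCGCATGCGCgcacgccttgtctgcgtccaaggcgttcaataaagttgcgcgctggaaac
Cox6a1 has NRF1 letters on both strands, at -160 and -162 from the start, and ETS letters on the minus strand at -16. Ndufa8 has NRF1 letters at -8, and Ndufa11 has them on both strands at -58 and -60 with CRE letters at -158. Ndufa8, an accessory subunit, stood at 70.1, 71.9 and 56.1 CPM in control and 56.1, 55.3 and 70.1 CPM in KCl, and Ndufa11, a membrane subunit, at 47.4, 45.1 and 38.8 CPM and at 38.9, 39.0 and 45.9 CPM. The same letters stood before genes with different arrangements of the libraries. Ndufa8 and Ndufa11 were chosen for their arrangement after their values were seen, so this contrast follows from the choice. The part of the motifs was not tested.

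Complex I as a whole, its 3 called genes included, had a median log2 fold change of -0.04 over 35 genes, from -0.69 in Ndufb4 to 0.52 in Ndufb2, where the median of all tested genes was 0.00. The 32 genes that were not called had a median of -0.05, with 20 negative and 12 positive, and one of -0.12 without replicate 4. Neither extreme passed the threshold. Ndufb2, an accessory subunit of the membrane arm, stood at 8.10, 13.8 and 10.6 CPM in control and 15.3, 15.6 and 15.7 CPM in KCl (edgeR adjusted p = 0.101), without overlap but with control 2 at 1.70 times control 1. Ndufb4, another accessory subunit of that arm, had the fewest counts of all members, at 1.19, 1.92 and 1.62 CPM in control and 0.998, 0.991 and 0.941 CPM in KCl (edgeR adjusted p = 0.0797), on 17 to 42 counts per library. Of its transcript, 18.3% of 50-base stretches also occur in other annotated genes, so part of its reads could have been assigned elsewhere. Without replicate 4 the log2 fold changes were 0.50 ± 0.27 for Ndufb2 and -0.65 ± 0.38 for Ndufb4 (SE). The 7 nuclear-encoded core subunits had a median of 0.08 and the 28 accessory subunits one of -0.05, called genes included in both. Without replicate 4 these medians were -0.08 and -0.12. Ndufa6, the accessory subunit of highest deposited FPKM, was close to level at 45.2, 46.9 and 45.2 CPM in control and 44.2, 44.2 and 44.4 CPM in KCl, a log2 fold change of -0.05 ± 0.05 (95% interval -0.16 to 0.07), and of -0.06 without replicate 4.

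Complex II had 0 of 4 genes past the threshold in edgeR, at an unadjusted p under 0.05 also 0, and DESeq2 and limma-voom called 0. Sdha, the flavoprotein that oxidises succinate, stood at 359, 313 and 271 CPM in control and 301, 253 and 341 CPM in KCl, with wide overlap (log2 fold change -0.07 ± 0.14 SE). Sdhb, the iron-sulphur subunit, had a log2 fold change of 0.12 ± 0.10, and the membrane anchors Sdhc and Sdhd had 0.17 ± 0.14 and 0.11 ± 0.12. Without replicate 4 these were -0.28 for Sdha, 0.02 for Sdhb, 0.10 for Sdhc and -0.02 for Sdhd. Complex II alone of the 5 complexes had a positive median with all 6 libraries, at 0.11 (0.00 without replicate 4), and its 4 genes all read higher in KCl 4 than in control 4.

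In complex III, 0 of 9 genes passed the threshold in edgeR, DESeq2 or limma-voom, and 0 had an unadjusted p under 0.05 in edgeR. Uqcr10, a small subunit, varied most, at 44.6, 67.6 and 36.1 CPM in control and 35.8, 36.6 and 56.6 CPM in KCl (log2 fold change -0.21 ± 0.28 SE), so that control 1 and 2 and KCl 4 were high and the others low. Uqcrc1, a large matrix-side subunit, followed the same order with 218, 250 and 186 CPM in control and 179, 192 and 232 CPM in KCl. Cyc1, which encodes cytochrome c1, stood at 150, 117 and 102 CPM in control and 95.0, 113 and 135 CPM in KCl, with overlap. Uqcrq, a small subunit, stood at 67.1, 67.1 and 56.9 CPM in control and 54.5, 60.2 and 66.4 CPM in KCl (-0.08 ± 0.10 SE). Control 4 lay below control 1 and 2, and KCl 4 was the highest of an even spread in KCl. Uqcr11, another small subunit, had 26.8, 27.4 and 21.9 CPM in control and 18.4, 29.7 and 28.9 CPM in KCl, which overlapped widely (0.01 ± 0.20 SE), and its sign turned under several settings. Uqcrb differed little, at -0.05 ± 0.07 (SE), and KCl 4 was not above control 4 for it (-0.12). Without replicate 4, all 9 complex III genes had a negative log2 fold change, with a median of -0.17, and 3 of them had an unadjusted edgeR p under 0.05 (Uqcrc1 0.0196, Uqcr10 0.0311, Uqcrq 0.0494). The log2 fold changes were then -0.33, -0.64 and -0.23 for these 3, -0.36 for Cyc1, -0.17 for Uqcr11 and -0.01 for Uqcrb. Cycs, the somatic cytochrome c gene, was scarce at 4.90, 4.17 and 4.17 CPM in control and 5.99, 4.14 and 5.42 CPM in KCl, a log2 fold change of 0.23 ± 0.17 that did not pass (edgeR adjusted p = 0.427; 0.16 without replicate 4), and 26.1% of its 50-base stretches occur in other genes.

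Complex IV had Cox6a1 as its 1 called gene among 13, and a median of -0.06. Cox4i1, the common form of subunit IV, stood at 272, 304 and 203 CPM in control and 195, 203 and 283 CPM in KCl, a log2 fold change of -0.20 ± 0.20 (SE). Control 4 read like KCl 1 and 2, and KCl 4 read like control 1 and 2. Without replicate 4 the difference was -0.53 ± 0.09 (edgeR adjusted p = 0.0694), whereas KCl 4 exceeded control 4 by 0.48. That adjusted p was the smallest of any member in the fit without replicate 4. Ndufa4 had the same arrangement, at 58.6, 66.7 and 48.8 CPM in control and 48.0, 49.2 and 62.0 CPM in KCl. Except for Cox6b2, the tissue-restricted or inducible partners stayed under the minimum. Beside Cox6a2 and Cox7a1 these were found at mean counts of 9.8 for Cox4i2, 0.8 for Cox8b and 3.2 for Ndufa4l2, the last with 14, 0 and 5 counts in control and 0 in every KCl library. Cox6b2, the testis form, was scarce (log2 fold change 0.20 ± 0.19), and its common partner Cox6b1 had 0.07 ± 0.13. Cox7a2 and Cox7a2l, the latter a factor of supercomplex assembly, had -0.08 ± 0.15 and -0.05 ± 0.07. The log2 fold changes without replicate 4 were -0.37 for Ndufa4, 0.09 for Cox6b2, -0.06 for Cox6b1, -0.29 for Cox7a2 and 0.00 for Cox7a2l.

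Complex V had 0 of 18 genes past the threshold in edgeR, DESeq2 and limma-voom, and 2 at an unadjusted edgeR p under 0.05. These were 2 small subunits of the central stalk. Atp5d stood at 92.6, 118 and 104 CPM in control and 131, 123 and 126 CPM in KCl (log2 fold change 0.27 ± 0.09 SE; edgeR adjusted p = 0.0876), without overlap. Atp5e stood at 46.8, 58.1 and 50.8 CPM and at 54.4, 81.8 and 68.4 CPM (0.39 ± 0.16 SE; edgeR adjusted p = 0.143), with KCl 1 inside the control range. The catalytic beta subunit gene Atp5b had the highest CPM of all members, at 1120, 1150 and 909 in control and 854, 966 and 1120 in KCl (-0.11 ± 0.13 SE), and again KCl 4 lay with control 1 and 2. The 3 genes for the identical mature c subunit of the rotor ring had log2 fold changes of -0.13 ± 0.11 (Atp5g1), -0.23 ± 0.13 (Atp5g2) and -0.02 ± 0.24 (Atp5g3). Atp5g2 is scarce, its groups did not overlap, and 38.3% of its 50-base stretches are shared with other genes. Atp5l, the g subunit, had a log2 fold change of 0.18 ± 0.11. In replicates 1 and 2 alone the values were 0.27 for Atp5d (edgeR adjusted p = 0.242), 0.37 for Atp5e (edgeR adjusted p = 0.311), -0.32 for Atp5b and 0.30 for Atp5l. The c subunit genes then had -0.28 (Atp5g1), -0.23 (Atp5g2) and -0.28 (Atp5g3).

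**Figure D3:**
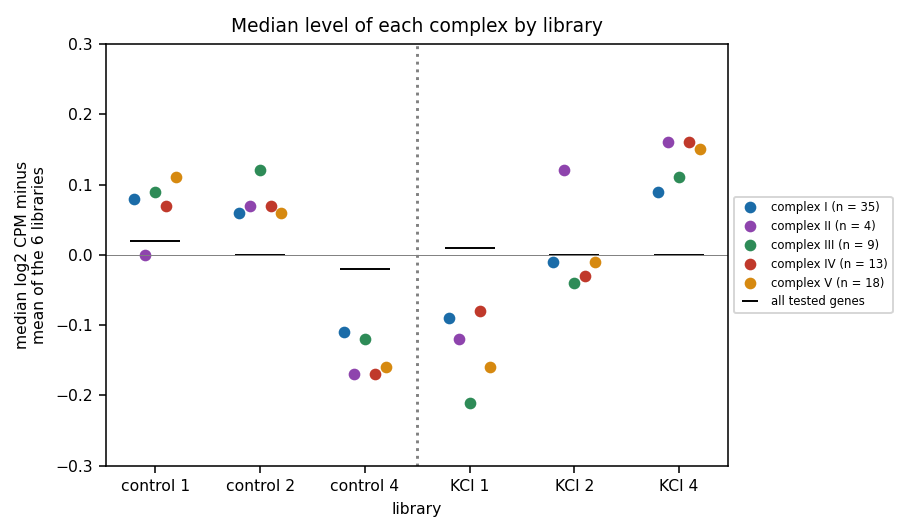
Median deviation of log2 CPM from the mean of the 6 libraries over the members of each complex, 1 point per library, with short black bars for the median of all tested genes. Control 1 and 2 and KCl 4 sit at or above zero for complexes I, III, IV and V, and control 4 and KCl 1 sit below it in each of these.

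The members shared an order of libraries that the group labels do not give. The median deviation of the 80 members from their own mean over the 6 libraries was 0.08, 0.06 and -0.13 in control 1, 2 and 4 and -0.11, -0.02 and 0.12 in KCl 1, 2 and 4, on the log2 scale, where the corresponding medians of all tested genes lay between -0.02 and 0.02. The members' share of all counts told the same, with 0.807%, 0.805% and 0.682% in control and 0.688%, 0.703% and 0.823% in KCl. For complex V alone these were 0.326%, 0.326% and 0.266% in control and 0.264%, 0.273% and 0.33% in KCl. The ranges of the groups overlapped for the sum of every complex. Ndufa8 and Ndufa11, whose promoters are printed above, are examples of this order, and Cox6a1 is not.

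Set apart by replicate, the members pointed in opposite directions. The median difference KCl minus control was -0.21 for replicate 1, -0.05 for replicate 2 and 0.25 for replicate 4, against -0.01, 0.00 and 0.02 over all tested genes, each from 1 library a side. KCl 4 exceeded control 4 for 67 of 80 members (83.8%), against 51.2% of all tested genes. For 33 of 80 members (41.2%), KCl 1 and 2 were both below control 1 and 2 while KCl 4 was above control 4, an arrangement found in 13.8% of all tested genes. The reverse arrangement held for 2 members, Ndufv3 and Atp5l, and for 11% of all tested genes. The first arrangement took in 13 of 35 genes in complex I, 1 of 4 in complex II (Sdha), 6 of 9 in complex III, 6 of 13 in complex IV, 7 of 18 in complex V, and not Cycs. Given that the mean of the libraries numbered 4 matches that of the other 4, a low control 4 goes with a high KCl 4 in each of these genes.

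**Figure D4:**
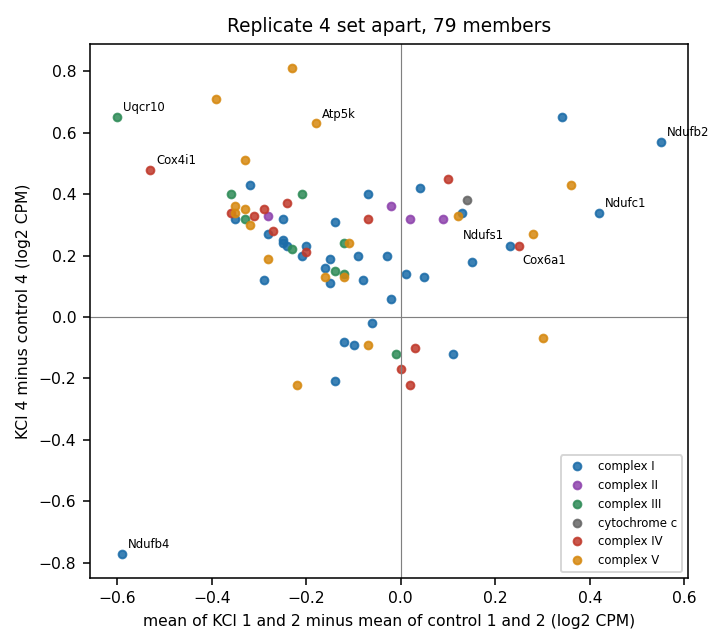
Each of 79 of the 80 members by its mean log2 CPM difference in replicates 1 and 2 (horizontal) and its difference in replicate 4 (vertical), coloured by complex. The upper left field, lower in KCl 1 and 2 but higher in KCl 4, holds 49 points, and Ndufs1, Ndufc1 and Cox6a1 lie in the upper right field with Ndufb2.

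Without replicate 4, 57 of 80 members had a negative log2 fold change and the median was -0.13, where that of all tested genes was 0.00. By complex the medians were -0.10 (I), 0.00 (II), -0.17 (III), -0.20 (IV) and -0.20 (V), and at an unadjusted p under 0.05 there were 16 members lower (20.0%, against 13.6% of all tested genes) and 4 higher (5.0%, against 16.2%). The 4 higher were the genes called with all 6 libraries. Groups of all 6 libraries did not overlap for 10 of 80 members (12.5%, against 38.5% of all tested genes), 6 of them higher in KCl (among them Ndufs1, Ndufc1, Ndufb2, Cox6a1 and Atp5d) and 4 lower (Ndufa6, Ndufa10, Ndufb4, Atp5g2). Cycling markers (Mki67, Top2a, Ccnb1, Cdk1, Pcna and Mcm5) had a similar order of libraries, with CPM values summing to 2140, 2070 and 1850 in control and 1850, 1780 and 2070 in KCl (0 of 6 rose and 1 fell). Their part in the result was not tested.

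Control libraries also differed among themselves. Control 2 stood at 2.00 times control 1 for Ndufs6 (28.6 against 14.3 CPM), 1.97 times for Atp5j2, the f subunit of ATP synthase (113 against 57.3 CPM), and 1.51 times for Uqcr10. At the other end, Atp5k, the e subunit, was at 0.717 times (14.1 against 19.6 CPM). Ndufs6, Atp5j2 and Atp5k are singled out after their values were seen. A spread of this size within 1 group exceeds the difference of every called member. The called members described above had no such spread themselves, with control 2 at 0.997 (Ndufs1), 1.01 (Ndufc1) and 0.966 (Cox6a1) times control 1. The test weighs a difference against the scatter of these same libraries. Close control values in called genes thus follow in part from the call and do not bear it out.

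Levels between genes were compared by the deposited FPKM, which divides by gene length. The median over the 80 members was 27.1 FPKM, against 5.09 over all tested genes. By complex the medians were 17.0 (I), 43.9 (II), 34.9 (III), 91.5 (IV) and 21.5 FPKM (V), so the complexes differed far more in level than any changed with KCl. Cox8a had the highest deposited value at 261 FPKM (269 ± 24.2 in control and 253 ± 25.4 in KCl, SD, n = 3 each), and Cox6b2 lowest at 0.709 FPKM. In complex I the range ran from 0.891 FPKM (Ndufb4) to 80.3 FPKM (Ndufa6). Within the c ring, Atp5g3 supplied most transcript per length at 63.7 FPKM, against 2.47 for Atp5g1 and 1.36 for Atp5g2. The length behind an FPKM value was that of the annotated exons (union of GENCODE M21 exons) for 7 members, longer for 59 and shorter for 14, and within 2-fold of it for 71. For Ndufs1 it was 11134 bases, where the exons have 8086. It was much shorter for Ndufa6 (560 against 1801 bases), Cox5a (690 against 2101) and Atp5l (511 against 6443), whose deposited FPKM are thus higher than exon length would give. Scaled to exon length the medians were 25.2 (I), 55.8 (II), 60.7 (III), 74.3 (IV) and 30.1 FPKM (V). On that scale Ndufa6 came to 25 and Ndufa8, with 861 bases on both counts, to 73.5, while Atp5b reached 240 and Cox8a 230. Of the 80 members, 30 share no 50-base stretch with another annotated gene, and Atp5l2-ps shares 73.4%.

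**Figure D5:**
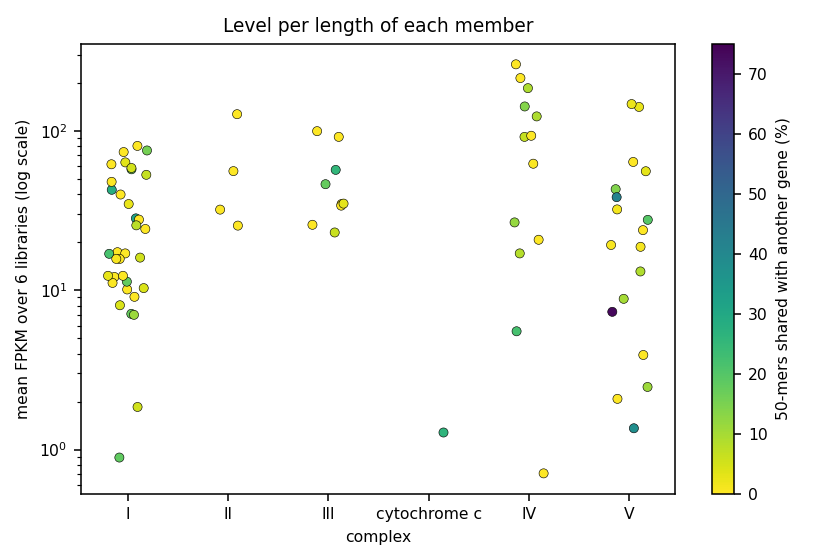
Mean deposited FPKM of each member over the 6 libraries by complex, on a log axis, 1 point per gene. Complex IV has the highest median (91.5) and the highest gene, Cox8a at 261, while complex I has a median of 17.0.

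The 13 subunits encoded by mitochondrial DNA were read beside the nuclear members. All 13 had a negative log2 fold change with all 6 libraries (median -0.22), against 50.6% of all tested genes. In KCl 4, 0 of 13 were higher than in control 4, against 67 of the 80 nuclear members and 51.2% of all tested genes. By replicate number, 0 of 13 were higher in KCl 1 than in control 1 and 6 of 13 were higher in KCl 2 than in control 2 (20 and 33 of the 80 nuclear members). With edgeR, 4 of 13 fell and 0 rose, where 10.5% of all tested genes fell and 12.4% rose. mt-Atp8, a membrane subunit of ATP synthase, had a log2 fold change of -0.30 ± 0.06 (SE; edgeR adjusted p = 0.0156). mt-Co3, a core subunit of cytochrome c oxidase, stood at 3900, 3650 and 3760 CPM in control and 3130, 3190 and 3130 CPM in KCl (-0.26 ± 0.06 SE; edgeR adjusted p = 0.0211), and mt-Cytb, the core of complex III, at 3790, 3540 and 3650 CPM and 2920, 3150 and 3000 CPM (-0.27 ± 0.06 SE; edgeR adjusted p = 0.0237). The groups did not overlap for either. mt-Atp6, named after its values were seen, was the other one that fell (-1.84 ± 0.45 SE; edgeR adjusted p = 0.0322). Control libraries 1, 2 and 4 read 6720, 3010 and 5470 CPM for this gene, against 748, 2130 and 1350 for KCl 1, 2 and 4. Its difference was the largest of the 13, and its SE was far above the 0.06 of mt-Atp8, mt-Co3 and mt-Cytb. Why mt-Atp6 stood apart from mt-Atp8 was not tested. Without replicate 4 the log2 fold changes were -0.29 for mt-Atp8, -0.26 for mt-Co3, -0.27 for mt-Cytb and -1.76 for mt-Atp6. The median of the 13 was then -0.18 and 0 passed the adjusted threshold in edgeR. At an unadjusted p under 0.05, 2 of the 13 were lower, as were 13.6% of all tested genes.

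Assembly factors, which build the complexes without staying in them, gave 7 lower and 1 higher of 51 tested genes (13.7% and 1.96%, against 10.5% and 12.4% of all tested genes). Without replicate 4, 0 of them passed the adjusted threshold in edgeR. At an unadjusted p under 0.05, 8 were lower (15.7%, against 13.6% of all tested genes) and 1 higher (1.96%, against 16.2%). For complex I, 2 of 14 fell. Acad9, a flavoprotein needed for its assembly, stood at 42.7, 37.4 and 40.2 CPM in control and 31.8, 34.8 and 32.6 CPM in KCl (log2 fold change -0.28 ± 0.07 SE; edgeR adjusted p = 0.0383), and Nubpl, which supplies iron-sulphur clusters, had -0.36 ± 0.10. The factor of the largest difference was Lyrm7, which stabilises the Rieske protein of complex III, at 1.90, 2.43 and 2.26 CPM in control and 0.42, 0.758 and 0.664 CPM in KCl (-1.84 ± 0.25 SE; edgeR adjusted p = 0.00581), every KCl library lying below every control library. Sdhaf2, which helps attach the flavin of complex II, had -0.33 ± 0.08 (edgeR adjusted p = 0.0245), and Tmem242 of complex V -0.24 ± 0.05 (edgeR adjusted p = 0.0179). In complex IV, Cox14 rose at 16.9, 23.7 and 20.5 CPM in control and 29.0, 28.9 and 28.4 CPM in KCl (0.50 ± 0.12 SE; edgeR adjusted p = 0.0342), without overlap, while Cox16 and Coa4 fell by 0.25 ± 0.06 and 0.36 ± 0.10 on the log2 scale, of 23 tested. Leaving out replicate 4 gave log2 fold changes of -1.88 for Lyrm7, -0.27 for Acad9, -0.36 for Nubpl, -0.33 for Sdhaf2, -0.24 for Tmem242, 0.51 for Cox14, -0.25 for Cox16 and -0.35 for Coa4.

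Among 14 regulators of mitochondrial gene expression 2 rose and 2 fell, where 12.4% of all tested genes rose and 10.5% fell. Ppargc1b, a coactivator of mitochondrial genes, stood at 4.71, 6.87 and 6.21 CPM in control and 10.9, 14 and 11.8 CPM in KCl (log2 fold change 1.04 ± 0.17 SE; edgeR adjusted p = 0.00921). Esrra, the nuclear receptor it works with, stood at 42.4, 44.5 and 45.9 CPM and 64.7, 68.2 and 63.0 CPM (0.56 ± 0.06 SE; edgeR adjusted p = 0.00356). Neither overlapped between groups. Gabpb1, the partner of the ETS factor GABPA, fell by 0.30 ± 0.05 on the log2 scale (edgeR adjusted p = 0.0106), and Tfb1m, a methyltransferase of mitochondrial ribosomal RNA named after its values were seen, was the other one that fell. Nrf1, whose motif was searched, had 0.08 ± 0.11 (edgeR adjusted p = 0.669) and was also chosen with its values known. In the fit without replicate 4 they were 1.10 for Ppargc1b, 0.61 for Esrra, -0.30 for Gabpb1, -0.42 for Tfb1m and 0.00 for Nrf1.

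Of 13 genes of import and the outer membrane 2 fell, and 1 of 11 genes of ubiquinone synthesis, where 10.5% of all tested genes fell. Vdac1, the main channel of the outer membrane, stood at 269, 262 and 261 CPM in control and 193, 197 and 196 CPM in KCl (log2 fold change -0.43 ± 0.04 SE; edgeR adjusted p = 0.00315), and Tomm70a, a receptor for imported proteins, fell by 0.23 ± 0.04. Coq4 fell among 11 genes of ubiquinone synthesis, by 0.31 ± 0.07. The values without replicate 4 were -0.44 for Vdac1, -0.23 for Tomm70a and -0.31 for Coq4. The citrate cycle and pyruvate dehydrogenase list gave 0 of 17 in either direction with edgeR and 1 higher with DESeq2. At an unadjusted edgeR p under 0.05 there were 3, where 4564 of the 13326 tested genes passed. In this list 9 of 17 genes had the arrangement of low KCl 1 and 2 and high KCl 4 (13.8% of all tested genes), and 16 of 17 were higher in KCl 4 than in control 4 (51.2% of all tested genes). The arrangement also held for 8 of 13 import and outer membrane genes and 4 of 11 of ubiquinone synthesis. Among assembly factors it held for 5 of 14 (I), 2 of 4 (II), 3 of 6 (III), 2 of 23 (IV) and 2 of 4 (V). It held for 2 of 14 regulators and 0 of 13 mitochondrially encoded subunits. The related lists came to 3 genes higher and 16 lower with all 6 libraries, and to 0 without replicate 4 in edgeR, where 26 of the 119 were lower (21.8%, against 13.6% of all tested genes) and 3 higher (2.52%, against 16.2%) at an unadjusted p under 0.05.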

How the data were processed

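Per the labels' protocols, Trizol was used for RNA and a NovaSeq instrument for sequencing. The submitters' processing notes list build mm10, the aligner HISAT2 (2.0.4), StringTie (1.3.3b) and edgeR. How reads were counted, and whether by strand, is not given in the sources used here, and reads of overlapping or antisense genes may be mixed. The authors deposited whole-number counts and FPKM for 19162 genes, and FPKM served only to compare levels between genes. The length implied by each FPKM value was constant across libraries, with a largest relative deviation of 6e-05.

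Sample titles and treatment labels gave the groups and replicate numbers. edgeR 4.0.16 under R 4.3.3 was run on the counts of all genes (filterByExpr with minimum count 10 and minimum total 15, TMM, robust quasi-likelihood test, 2-sided, Benjamini-Hochberg adjustment, threshold 0.05), which left 13326 genes, or 13525 without replicate 4. All 80 members passed the filter in both fits. Medians and counts over members carry no test. Differences within a replicate number used log2 CPM with a prior count of 0.5. The script was tested on simulated data. Other settings tried were scaling by RLE, upper quartile or library size alone, dropping the filter or asking for a mean CPM of 5 or more, a replicate block, a term for replicate 4, each library left out, DESeq2 1.42.0 and limma-voom (limma 3.58.1).

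Members and lists were chosen with earlier results of these data known. The genes named were, in each complex, the 4 with the smallest p, the one of highest FPKM and those with the largest and smallest fold change. Isoform families, the succinate dehydrogenase genes, Cycs and Cyc1 were always included, as were up to 3 genes with the smallest p among those past the threshold in each related list. Any other gene was chosen after their values were seen. The values of 1 member are not reported here, though it enters the counts and medians. Coordinates and shared 50-base stretches came from GENCODE M21 on GRCm38, and promoters from RefSeq (GRCm38.p6).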

Additional observations from a re-analysis of the deposited data

How the results depend on the processing

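The count of members that rose, 4 with all 6 libraries, was 4 under RLE scaling, a mean CPM of at least 5, DESeq2 and limma-voom, and 3 under upper-quartile scaling, library-size scaling and no filter. It was 0 without replicate 4 and 0 with a term for replicate 4 as a batch. By complex, the 3 of complex I and the 1 of complex IV were 0 in each of these settings. Leaving out 1 library gave 0 to 5 members higher (0 to 3 in complex I, 0 to 1 in complexes IV and V) and 0 to 1 lower. It was 0 without control 4 or KCl 4, 2 without control 1, where Ndufb4 was called lower (-0.87), and 5 without control 2, where Ndufb2 (0.74), Atp5d (0.36) and Ndufs6 were called. Atp5e was called without KCl 1 (0.53).

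The labels do not say whether replicate numbers pair the libraries. Deviations of same-numbered libraries from their group means correlated at 0.03, -0.06 and -0.57 for numbers 1, 2 and 4. These were not all above 0.1, so the main fit did not use the numbers as pairs. The correlations cannot settle the question, since the libraries numbered 4 depend on the others. Differences by replicate number above set same-numbered libraries side by side as a description only, and other ways of matching libraries would give other values. With the replicate block 0 members were higher, 0 in complex I and 0 in complex IV. The related lists gave 2 lower and all genes 978 higher and 700 lower with the block. With the batch term these were 3 lower, and 922 and 651.

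Without replicate 4, related lists gave 0 higher and 0 lower, and all genes 45 and 17. DESeq2 gave 5 related genes higher. Leaving out 1 library gave 2 to 4 related genes higher, 2 to 14 lower, and over all genes 852 to 1495 higher and 551 to 1356 lower, where the value with all libraries was 1655 and 1402. Without replicate 4 the medians went from -0.04 to -0.10 (complex I), 0.11 to 0.00 (II), -0.05 to -0.17 (III), -0.06 to -0.20 (IV) and -0.05 to -0.20 (V), and that of complex IV lay between -0.13 and -0.01 with 1 library left out. The 49 genes chosen by the naming rule, which Ndufs6 is not among, gave 777 log2 fold changes under the alternatives, of which 125 no longer passed the threshold and 4 newly passed. Of the 777, 24 changed sign, in 10 genes that passed in neither fit, Uqcr11 most often (-0.17 without replicate 4), with Cox6b1 (-0.06) and Sdhd (-0.02) without replicate 4 and Uqcr10 (0.09) without control 2 among them. The cause of these differences was not tested, beyond fewer libraries in the fits that leave libraries out. Depth limits the members with few counts, such as Ndufb4 and Cox6b2.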
